A study of Mus musculus with 4 samples.

Results

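Heme synthesis in mouse blood stem cells was described through the 8 genes of the pathway that were measured here, Alas1, Alas2, Alad, Uros, Urod, Cpox, Ppox and Fech. The members were taken as every probe set whose array annotation named exactly 1 gene and that gene was in the pathway, a rule that uses no measured value. They came to 19 probe sets among the 34945 that named 1 gene, or 8 of 18193 genes. The groups were 2 samples of hematopoietic stem cells (HSC), which are KSL cells without the surface protein CD34, and 2 samples of multipotent progenitors (MPP), which are KSL cells that carry it. KSL cells are the lineage-negative, c-Kit-positive fraction, further gated on another stem cell antigen, that holds the earliest blood-forming cells. All 4 samples were sorted from mice of the C57BL/6 background, with no genetic change or treatment named in the labels. The animals' age and sex, the tissue and any pooling of animals are not given in the sources used here. RNA equivalent to 3000 cells was amplified in 2 cycles for each sample and read on an Affymetrix Mouse Genome 430 2.0 array as probe set intensities in arbitrary units.

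Heme is the iron-containing ring that carries oxygen in hemoglobin and electrons in the cytochromes. Its synthesis starts in the mitochondrion, where 5-aminolevulinate synthase joins glycine and succinyl-CoA, continues in the cytosol and ends in the mitochondrion, where iron is inserted. The starting enzyme has 2 genes, Alas1, which is used in most tissues and is repressed by heme, and Alas2, which is switched on in red cell precursors and is driven there by GATA1. The other members serve all cells that make heme, and most of them are induced further when a cell becomes a red cell. The enzyme between Alad and Uros is not analysed here.

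The pathway's common enzymes were detected in HSC and in MPP, mostly without a called difference between them, while the red-cell enzyme Alas2 was at background in both. Of the 19 probe sets, 13 stood above a control floor on all 4 arrays, and 14, from 7 of the 8 genes, passed a filter on low values and were tested. The floor was set for each array by the brightest of 27 probe sets for bacterial transcripts. It stood at 16.9 and 16.7 for HSC and at 14.9 and 13.6 for MPP. Median intensities were 26.1 and 26.9 for HSC and 22.0 and 21.3 for MPP, so most probe sets on each array stood above its floor. One Fech probe set was higher and 1 Alas1 probe set was lower in HSC (limma, Benjamini-Hochberg adjusted p under 0.05 over 27022 probe sets), and 12 tested probe sets were not called in either direction. Over all probe sets tested, 5.96% were called higher and 4.65% lower, so 1 of 14 in each direction was near that background. Each gene was also represented by its brightest tested probe set. Of the 7 tested genes limma called 0 that way (1 at an unadjusted p under 0.05, Urod), against 7.71% of all genes called higher and 5.9% called lower. Of the 14 probe sets, 3 had an unadjusted p under 0.05.

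The 2 HSC values lay above both MPP values for 7 of the 14 tested probe sets and below both for 3, and the groups overlapped for 4. Over all probe sets tested the shares were 33.3% above and 21.3% below. With 2 arrays a group an exact permutation test over samples cannot give a p below 0.333, so a lack of overlap in 1 probe set has no test of its own here. Differences are given as HSC minus MPP on the log2(intensity + 6.01) scale throughout, which understates changes of dim probe sets. They ran from -0.97 to 0.91 over the 14 probe sets, with a median of 0.29. The median over all probe sets tested was 0.11, and 58.3% of those differences were above 0. After the arrays were set to equal medians the median was 0.06 for the members and -0.13 for all probe sets, with 8 rather than 11 of the 14 members above 0.

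**Figure D1:**
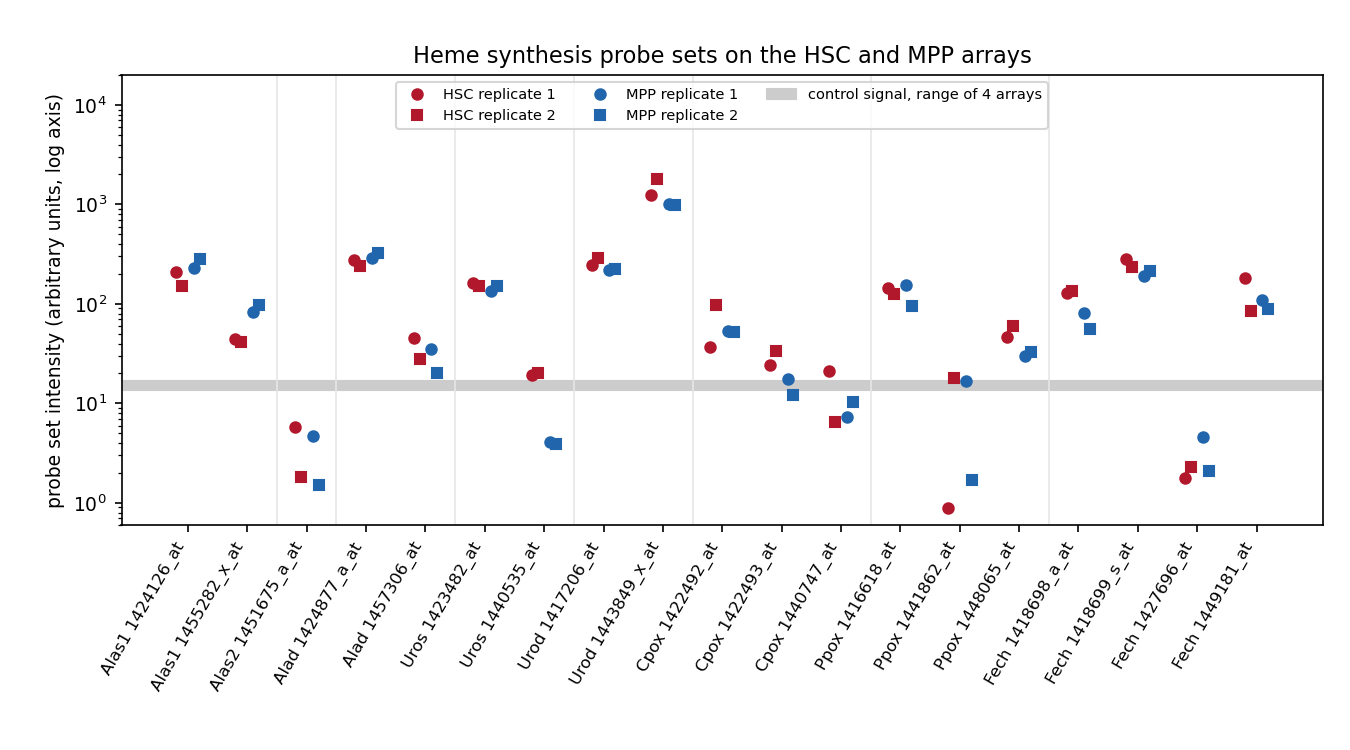
Intensity of each of the 19 heme synthesis probe sets on the 4 arrays (log axis, arbitrary units), with 2 HSC values to the left of 2 MPP values and each gene's probe sets between vertical lines. The grey band is the range of the control floor over the arrays. The Alas2 values lie under it, while the Urod values reach 1244 and 1817 in HSC and 1004 and 982 in MPP.

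The group labels were checked against stem cell and progenitor markers. Cd34, the antigen that separated the groups, had 469 and 235 in HSC, against 1967 and 2302 in MPP. All 6 such markers measured were called, with Slamf1 and Procr leading the 3 higher in HSC and Cd48 and Flt3 leading the 3 lower. The 5 cell division genes measured, led by Mki67 and Top2a, were all called lower in HSC, with a median difference of -2.33. Array medians were 26.1 and 26.9 for HSC, against 22.0 and 21.3 for MPP. The HSC arrays also had the wider range of the signal ratio between the 3′ and 5′ ends of the actin transcript, 5.26 and 9.42, against 4.99 and 5.01 for MPP. Pearson's r across probe sets, which are not independent replicates, was 0.949 between the HSC arrays and 0.966 between the MPP arrays. In such bulk samples, fewer cells of a type and less RNA per cell cannot be told apart. The part of division, array median and RNA quality in the values that follow was not tested.

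Alas1, the housekeeping form of the rate-limiting enzyme, was lower in HSC by 1 of its 2 probe sets. That probe set (1455282_x_at) had 44.4 and 41.6 in HSC, against 83.8 and 97.0 in MPP, so the groups did not overlap. The means were 43.0 ± 1.95 in HSC and 90.4 ± 9.33 in MPP (SD, n = 2 each). The difference was -0.97 (SE 0.27, 95% interval -1.58 to -0.37), or 1.96-fold lower in HSC, with limma's Benjamini-Hochberg adjusted p of 0.0461. The call was lost without HSC replicate 2 (adjusted p = 0.0705 in limma), without MPP replicate 1 (0.139) and without MPP replicate 2 (0.277), and held in 7 of 12 alternative settings. The suffix of this identifier marks probes that can also match other transcripts, and their part in the value was not tested.

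The brighter Alas1 probe set (1424126_at) had 211 and 150 in HSC, against 228 and 285 in MPP. Both HSC values again lay under both MPP values, but the gap between 211 and 228 was smaller than the gap within either group. The difference was -0.50 (95% interval -1.01 to 0.0085, limma adjusted p = 0.213). Averaged over both probe sets, Alas1 differed by -0.74 and was called (limma adjusted p = 0.0413).

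The start of the Alas1 gene is shown because its window holds the binding letters of NRF-1, a factor known for switching on nuclear genes of mitochondrial function. The sequence is RefSeq's for build GRCm38.p6, minus strand, chr9:106247908-106247937. Capitals mark the NRF-1 core GCATGCGC, searched on both strands, whose forward and reverse matches overlap here.
Alas1: gccgcacccaagGCGCATGCGCggcggtca
Windows of 300 bases, from 250 before to 50 after a transcript start, were available for 7 of the 8 genes, 10 windows in all, and Fech is named only. Among these genes the NRF-1 core was found in the Alas1 windows alone, and it occurs in 2.71% of all 32851 windows. A match is a description of the letters and says nothing of binding in these cells.

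Alas2, the red-cell form, was at background in both populations. Its only probe set (1451675_a_at) had 5.78 and 1.82 in HSC, against 4.67 and 1.51 in MPP. All 4 values lay under the control floor of their array, so no fold change is given and it was not tested. The upstream bases of Alas2 are shown because they carry the letters read by the red-cell factors GATA1 and KLF1. The stretch is RefSeq's for build GRCm38.p6, plus strand, chrX:150547167-150547416, and ends at the base before the transcript start. Capitals mark 1 match to the GATA motif AGATAA, here as its reverse complement TTATCT, and a run of 3 CACCC boxes, here as GGGTG.
Alas2: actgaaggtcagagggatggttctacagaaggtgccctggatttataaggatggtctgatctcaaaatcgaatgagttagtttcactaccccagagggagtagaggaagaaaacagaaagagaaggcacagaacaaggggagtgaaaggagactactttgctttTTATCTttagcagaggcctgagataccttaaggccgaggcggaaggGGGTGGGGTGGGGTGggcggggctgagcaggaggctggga
AGATAA in either orientation occurs in 11.2% of all windows of 300 bases, and CACCC in 57.5%. Among the 7 genes with a window, the GATA motif was found for Alas2 and Cpox only. CACCC was found for Alas1, Alad, Urod and Cpox as well as Alas2, with 4 matches in the Cpox window against 3 for Alas2.

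Of those factors Klf1 was higher in HSC and Gata1 was not called. Of 8 erythroid transcription factors, 6 were called higher in HSC and 0 lower, where 7.71% of all genes were called higher and 5.9% lower. The median difference of the list was 1.03, against 0.10 over all genes tested. Gata1 and Ldb1, the latter named after its values were seen, were not called and lay below 0, at -0.75 and -0.27. Klf1, which binds CACCC boxes in red-cell genes, had 133 and 206 in HSC, against 46.2 and 35.5 in MPP. The groups were well apart, with a difference of 1.88 (SE 0.29, limma adjusted p = 0.00228). Gfi1b, a repressor needed for red cells and platelets, had 300 and 405 in HSC, against 129 and 110 in MPP (difference 1.51, limma adjusted p = 0.00179). Tal1, Nfe2, Zfpm1 and Lmo2, named after their values were seen, rose by 0.97, 1.08, 1.19 and 0.59. For Zfpm1, 1 of 2 tested probe sets was called. Only Klf1 and Gfi1b were called without MPP replicate 2, so the count then fell to 2. Gata1 itself, the factor that drives Alas2 in red cells, had 6.39 and 104 in HSC, against 51.1 and 61.8 in MPP. The first of these HSC values was under the floor, and the HSC arrays stood on either side of both MPP arrays (difference -0.75, limma adjusted p = 0.594). The difference was 0.82 without HSC replicate 1, and -2.33 and called lower without HSC replicate 2 (limma adjusted p = 0.00304), so 1 of the 8 factors fell in that setting.

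Markers of red cells were read beside Alas2. Of 25 listed, 19 were on the array with a probe set of their own and 12 were tested. Of those tested, 3 were called higher in HSC and 0 lower, where 7.71% of all genes were called higher and 5.9% lower. The other 9 were not called. Among them Tfrc differed by -0.18, Hemgn by 0.22 and Epor by 0.65, all named after their values were seen. Car1, a carbonic anhydrase of early red cell precursors, had 672 and 1215 in HSC, against 17.7 and 8.87 in MPP. The difference was 5.60 (limma adjusted p = 6.03e-06), with the second MPP value under the floor. Ermap, an erythroid membrane protein, had 126 and 202 in HSC and was under the floor in MPP at 2.58 and 1.01, which is at least 11.2-fold higher in HSC (limma adjusted p = 7.84e-05). Rhag, the Rh-associated membrane protein and the remaining call, named after its values were seen, had 58.9 and 74.2 in HSC, against 8.58 and 11.2 in MPP, under the floor. It was at least 4.64-fold higher in HSC (limma adjusted p = 0.00403). These bounds divide the mean HSC level by the MPP floor on the log2 scale.

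Several markers of mature red cells were low or uneven. Slc4a1, the anion exchanger of the mature red cell, had 16.1 and 15.0 in HSC, against 6.15 and 3.38 in MPP, under the floor on all arrays, as was the embryonic globin Hbb-bh1. Epb42, Kel and Cldn13, named after their values were seen, were above the floor on both HSC arrays and under it in MPP. Epb42 had 22.9 and 21.4 in HSC, against 13.3 and 0.489 in MPP. Kel had 20.0 and 40.4, against 14.6 and 9.60, and Cldn13 had 20.5 and 37.0, against 2.97 and 0.830. Kel was not called (limma adjusted p = 0.245), and Epb42 and Cldn13 were not tested. A probe set shared by several alpha-globin genes (1428361_x_at) had 1026 and 82.9 in HSC, against 18.0 and 29.8 in MPP, so HSC replicate 1 was far above the other arrays (difference 3.37, limma adjusted p = 0.0254). The other shared alpha-globin probe set tested (1452757_s_at) had 435 and 36.9 in HSC, against 6.97 and 13.5 in MPP, under the floor, with the same order of the HSC arrays (limma adjusted p = 0.0336). The probe sets that name 1 alpha-globin gene each lay lower in HSC on both arrays. Hba-a2 had 38.4 and 17.4 in HSC, against 42.2 and 46.0 in MPP, and was not called (difference -0.63, limma adjusted p = 0.361). Hba-a1 had 13.7 and 2.33 in HSC, under the floor, against 16.6 and 16.5 in MPP, above it, and was not tested. In contrast, Car1, Ermap and Rhag were each higher in HSC replicate 2 than in HSC replicate 1. The summed level of the 19 markers was 2259 and 3041 in HSC, against 1393 and 1296 in MPP. Car1 alone gave 672 and 1215 of the HSC sums and 17.7 and 8.87 of the MPP sums. The sums leave out the probe sets shared by several alpha-globin genes. Of the 19 markers, 14 were above the floor on both HSC arrays, 8 on both MPP arrays.

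**Figure D2:**
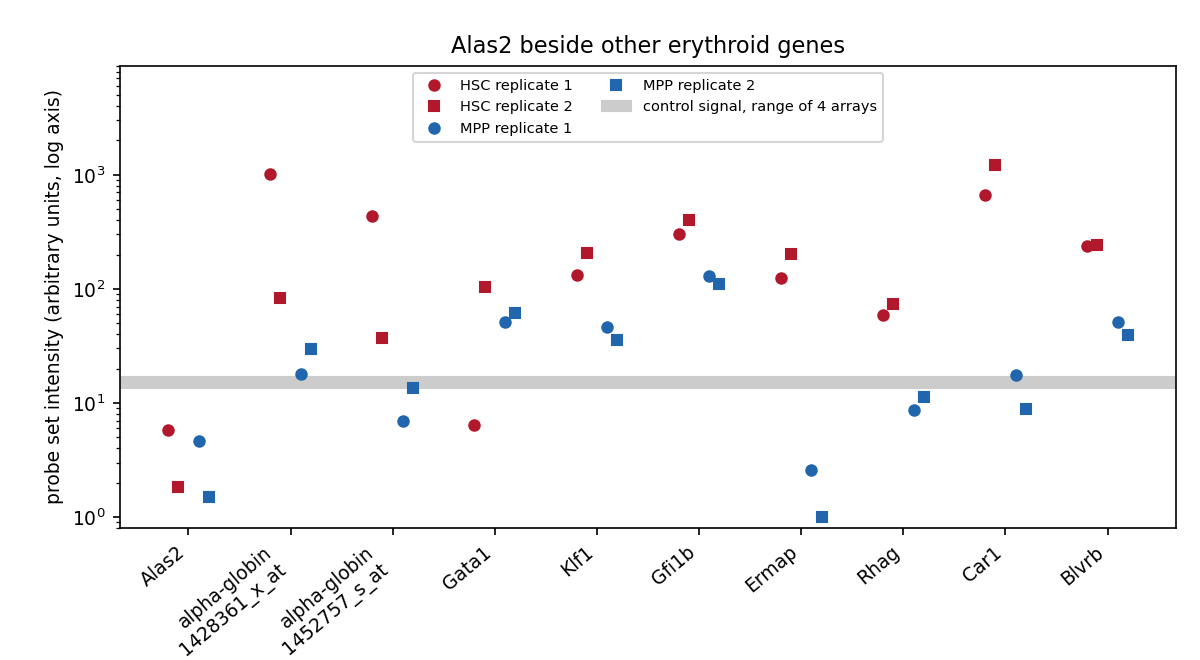
Intensity on each of the 4 arrays (log axis, arbitrary units) of Alas2, 2 alpha-globin probe sets, erythroid transcription factors, red-cell markers and the biliverdin reductase Blvrb, with 2 HSC values to the left of 2 MPP values. Alas2 lies under the grey band of the control floor in HSC and MPP alike, while Car1, Ermap, Rhag, Klf1 and Gfi1b are higher on both HSC arrays than on both MPP arrays. Car1, Ermap and Rhag are drawn because they were the 3 called of 12 red-cell markers tested. The other 9 were not called and are not drawn.

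Alad, the cytosolic enzyme that joins 2 molecules of 5-aminolevulinate, was not called. Its brighter probe set (1424877_a_at) had 279 and 239 in HSC, against 290 and 327 in MPP. The HSC values lay just under the MPP values, with a difference of -0.25 (95% interval -0.67 to 0.18, limma adjusted p = 0.476). The dimmer probe set (1457306_at) had 45.2 and 27.9 in HSC, against 35.2 and 20.4 in MPP, and pointed the other way with overlapping groups (difference 0.34, 95% interval -0.54 to 1.21). The direction for Alad therefore turned with the probe set read.

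Uros, which closes the chain of 4 pyrrole rings into the macrocycle, was not called. Its bright probe set (1423482_at) had 162 and 151 in HSC, against 134 and 150 in MPP. HSC replicate 2 and MPP replicate 2 were nearly equal, and the difference was 0.13 (SE 0.21, 95% interval -0.34 to 0.60, limma adjusted p = 0.762). A second, dim probe set (1440535_at) had 19.2 and 20.2 in HSC, above the floor, against 4.10 and 3.94 in MPP, below it, at least 1.38-fold higher in HSC. It did not pass the filter on low values and was not tested with the others.

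Urod, which trims the side chains of the new ring, had a bright probe set (1443849_x_at) with 1244 and 1817 in HSC, against 1004 and 982 in MPP. The means were 1530 ± 405 in HSC and 993 ± 15.4 in MPP (SD, n = 2 each), so the groups were apart while the HSC arrays differed widely from each other. The difference was 0.60 (SE 0.19, 95% interval 0.17 to 1.02), or 1.51-fold, and did not pass the test (limma adjusted p = 0.0778). It passed in 3 of 12 alternative settings, among them without HSC replicate 1 (difference 0.87, limma adjusted p = 0.00215), while without HSC replicate 2 the difference was 0.32 (limma adjusted p = 0.233). Its suffix marks probes that can also match other transcripts, whose part was not tested here either. The other Urod probe set (1417206_at) had 249 and 290 in HSC, against 221 and 223 in MPP, in the same direction and closer together (difference 0.27, 95% interval -0.16 to 0.70, limma adjusted p = 0.437).

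Cpox, the oxidase of the space between the mitochondrial membranes, was unevenly measured. Its brightest probe set (1422492_at) had 36.5 and 97.6 in HSC, against 53.4 and 52.5 in MPP. The HSC arrays stood on either side of the MPP arrays, and the interval of the difference was wide (0.17, 95% interval -0.70 to 1.05, limma adjusted p = 0.836). Leaving out HSC replicate 2 turned the difference to -0.47. A second probe set (1422493_at) had 24.4 and 33.9 in HSC, against 17.6 and 12.1 in MPP, with 1 of the MPP arrays under the floor (difference 0.75, 95% interval -0.18 to 1.69, limma adjusted p = 0.312). The third (1440747_at) was above the floor on HSC replicate 1 only, at 21.2 and 6.49 in HSC against 7.25 and 10.4 in MPP, and was not tested.

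The start of Cpox is shown because it is the other stretch among the members with the GATA letters. It is RefSeq's for build GRCm38.p6, plus strand, chr16:58670199-58670228, and spans the transcript start. Capitals mark the match to AGATAA, here as TTATCT.
Cpox: gcagggtgcagtcTTATCTgctctttccgg
Of the genes with these letters, Alas2 was under the floor on every array, and Cpox, by its brightest probe set, was above it on every array.

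Ppox, which oxidises the ring to protoporphyrin, was not called. Its brightest probe set (1416618_at) had 145 and 125 in HSC, against 153 and 94.8 in MPP, with both HSC values between the MPP values (difference 0.15, 95% interval -0.44 to 0.74, limma adjusted p = 0.777). A dimmer one (1448065_at) had 47.0 and 60.7 in HSC, against 29.9 and 32.8 in MPP. There the groups were apart, with a difference of 0.67 whose 95% interval reached from -0.04 to 1.38 (limma adjusted p = 0.231). The third (1441862_at) had 0.893 and 18.1 in HSC, against 16.9 and 1.72 in MPP, above the floor on 1 array of each group, and was not tested.

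Fech, the ferrochelatase that inserts iron and completes heme, was higher in HSC by 1 of its 4 probe sets. That probe set (1418698_a_at) had 128 and 136 in HSC, against 80.6 and 56.5 in MPP. The HSC arrays were close together and both above the MPP arrays, with means of 132 ± 5.35 in HSC and 68.5 ± 17.1 in MPP (SD, n = 2 each). The difference was 0.91 (SE 0.26, 95% interval 0.33 to 1.48), or 1.88-fold higher in HSC, with a limma adjusted p of 0.0496. The call held in 3 of 12 alternative settings, whose adjusted p ran from 0.0110 to 0.322, and was lost without any 1 of the 4 arrays. It was also lost when the arrays were set to equal medians (difference 0.67, limma adjusted p = 0.123).

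The brightest Fech probe set (1418699_s_at) had 283 and 236 in HSC, against 193 and 216 in MPP. Its groups did not overlap either, but the difference of 0.33 (95% interval -0.12 to 0.78) did not pass (limma adjusted p = 0.356). Another (1449181_at) had 181 and 85.4 in HSC, against 110 and 89.8 in MPP, where HSC replicate 2 was the lowest of the 4 arrays (difference 0.31, limma adjusted p = 0.613). Without HSC replicate 1 that difference turned to -0.21. The last (1427696_at) was under the floor on all 4 arrays, between 1.77 and 4.62.

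Seen along the pathway, the brightest probe sets of the 7 tested genes differed by -0.50 for Alas1 and -0.25 for Alad, and by 0.13 to 0.60 for Uros, Urod, Cpox, Ppox and Fech. None of these 7 passed the test (limma adjusted p 0.0778 to 0.836), and the differences between genes were not tested against each other. Under equal array medians Uros, Cpox and Ppox were below 0, at -0.10, -0.06 and -0.08. Dim probe sets differed upward across the whole array. By level, in 10 equal groups of the probe sets tested, the median difference was 0.22 in the dimmest group and -0.10 in the brightest, and its part in the dimmer Cpox, Ppox and Alad values was not tested.

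**Figure D3:**
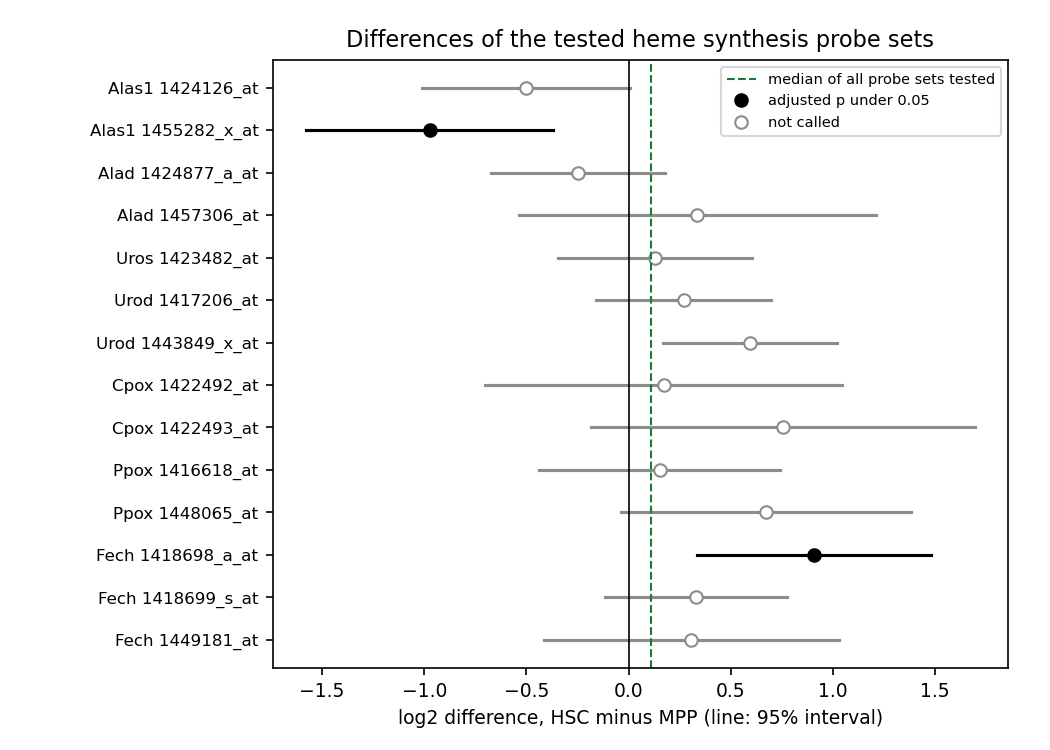
Difference between HSC and MPP (HSC minus MPP, log2 scale) of the 14 tested heme synthesis probe sets in pathway order, with 95% intervals from limma and a dashed line at the median of all probe sets tested, 0.11. Filled points passed at an adjusted p under 0.05, the Alas1 probe set at -0.97 and the Fech probe set at 0.91, and the other 12 are open.

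Genes that feed the pathway included 1 call. Of 15 genes of precursor supply and mitochondrial transport, 14 were tested, 1 rose in HSC and 0 fell, with a median difference of -0.10. That 1 of 14 was near the 7.71% of all genes called higher. The one that rose was Fam210b, a mitochondrial protein known for aiding iron import in red cells, by 1 of its 2 tested probe sets. That probe set had 95.6 and 133 in HSC, against 60.9 and 42.7 in MPP (difference 1.06, limma adjusted p = 0.0415). Its call held in 7 of 13 alternative settings. It was lost without HSC replicate 2 (difference 0.83) and without MPP replicate 2 (0.83). Equal array medians (limma adjusted p = 0.0914), quantile normalization (0.0883), no filter (0.105) and no trend (0.119) also lost it. With equal medians 4 genes of this list were called lower in HSC, and without HSC replicate 1 it was 3, against 0 as deposited with all arrays. Iron-sulfur clusters, which Fech carries and which compete for the same mitochondrial iron, have a machinery of which 11 of 15 listed genes were measured. Of these, limma called 0 in either direction (2 at an unadjusted p under 0.05), and 1 was called higher in 4 of 14 alternative settings. Over all genes, 7.71% were called higher and 5.9% lower. The median of the iron-sulfur list was 0.02, and Isca1 and Hscb, assembly factors, had the smallest p. Isca1 had 963 and 839 in HSC, against 615 and 615 in MPP (difference 0.54, limma adjusted p = 0.0617). Hscb had 515 and 424 in HSC, against 352 and 316 in MPP (difference 0.48, limma adjusted p = 0.140).

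Genes that move heme or take it apart included calls in both directions. Of 13 listed, 10 were tested, 3 rose in HSC and 1 fell, with a median difference of 0.21, where 7.71% of all genes were called higher and 5.9% lower. Blvrb, the biliverdin reductase that acts after heme is opened, had 236 and 241 in HSC, against 51.6 and 39.8 in MPP. The arrays within each group were close and the groups far apart, with a difference of 2.25 (SE 0.24, limma adjusted p = 0.000257), and it was called in all 13 alternative settings run on it. Abcg2, an exporter of porphyrins and dyes known as a stem cell marker, had 1107 and 977 in HSC, against 430 and 407 in MPP (difference 1.30, limma adjusted p = 0.000745). Slc48a1, which carries heme out of the lysosome and is named after its values were seen, was called higher by 1 of its 2 tested probe sets. That probe set had 576 and 434 in HSC, against 209 and 244 in MPP (difference 1.12, limma adjusted p = 0.00569). Flvcr1, described as an exporter of heme, was the gene that fell, by 1 of its 2 tested probe sets. That probe set had 222 and 264 in HSC, against 348 and 502 in MPP (difference -0.77, limma adjusted p = 0.0489). That call held in 7 of 13 alternative settings. It was lost without HSC replicate 1 (difference -0.65) and without MPP replicate 2 (-0.51). Quantile normalization (limma adjusted p = 0.0670), a pseudocount of 1 (0.0543), no filter (0.102) and no trend (0.192) also lost it. Hmox1, the inducible oxygenase that opens heme, had 23.0 and 31.7 in HSC, against 15.8 and 5.49 in MPP. The second MPP value was under the floor, and the gene did not pass (difference 1.06, limma adjusted p = 0.218).

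The regulators that sense heme and iron numbered 10, of which 9 were tested, 1 rose in HSC and 0 fell. Their median difference was 0.40, and 1 of 9 was near the 7.71% of all genes called higher. Without HSC replicate 1, 2 were called higher and 1 lower. Bach1, a repressor that heme releases from DNA, was called higher by 1 of its 2 tested probe sets. That probe set had 1042 and 1094 in HSC, against 714 and 623 in MPP (difference 0.67, limma adjusted p = 0.0244). It was not called with equal array medians (limma adjusted p = 0.105), no filter (0.0532) or no trend (0.167). Nor was it called without MPP replicate 1 (difference 0.77) or without MPP replicate 2 (0.58).

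Among proteins that use heme, Mpo and Cycs fell in HSC. Of 14 listed genes of heme proteins and heme attachment, 12 were tested, 0 rose and 2 fell in HSC, with a median difference of -0.09, where 5.9% of all genes were called lower. The count called lower was 4 with equal array medians, 4 with each gene's probe sets averaged and 3 without HSC replicate 1, and under quantile normalization 1 was called higher. Mpo, the heme peroxidase of granulocyte precursors, had 144 and 73.8 in HSC, against 3867 and 4658 in MPP (difference -5.28, limma adjusted p = 2.26e-06). Cycs, the electron carrier cytochrome c, had 1294 and 1951 in HSC, against 2948 and 3034 in MPP (difference -0.91, limma adjusted p = 0.0134). The Cycs call was lost without MPP replicate 1 (difference -0.93) and without MPP replicate 2 (-0.89). It was also lost with no filter (limma adjusted p = 0.0646) and with no trend (0.145).

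**Figure D4:**
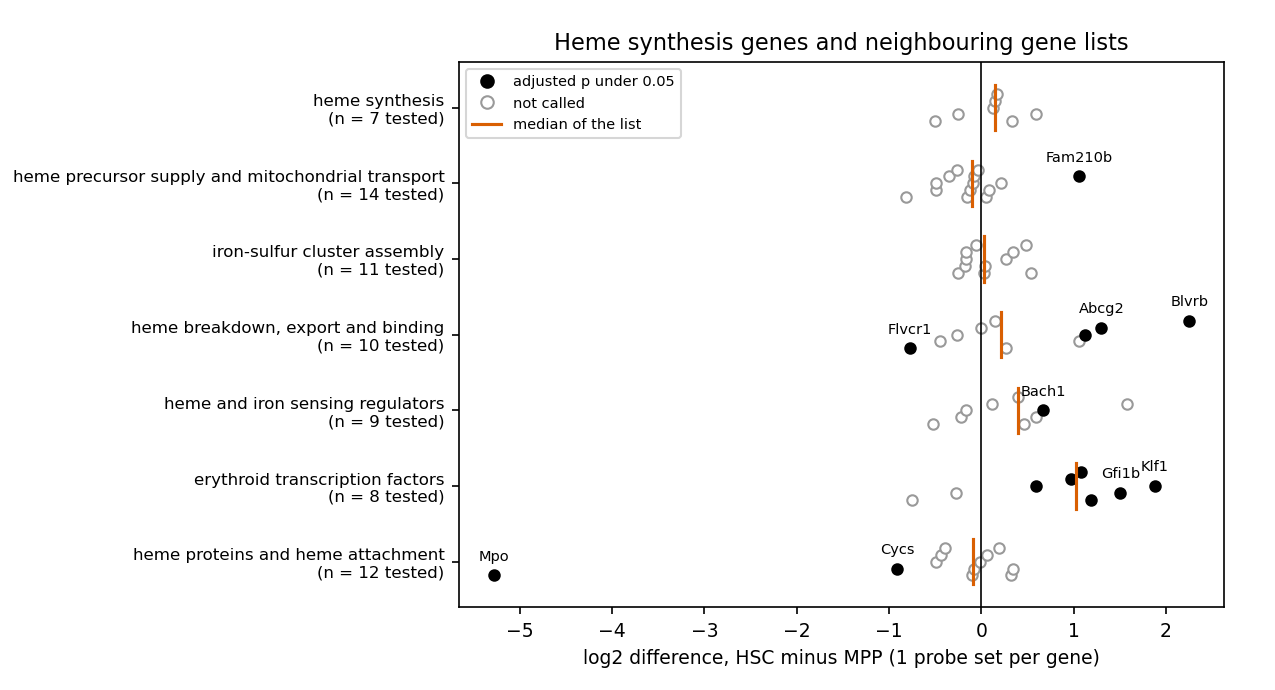
Difference between HSC and MPP (HSC minus MPP, log2 scale) of each tested gene, 1 probe set per gene, for heme synthesis and 6 neighbouring gene lists, with the median of each list as a line. Filled points passed at an adjusted p under 0.05. The 7 heme synthesis genes lie between -0.50 and 0.60 with none filled, while 6 of the 8 erythroid transcription factors are filled and Mpo stands at -5.28.

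Markers of other blood cells were read in the same arrays. Of 8 megakaryocyte genes tested, 3 were called higher in HSC and 0 lower, where 7.71% of all genes were called higher and 5.9% lower. The summed level of the list was 2149 and 2157 in HSC, against 652 and 497 in MPP. The leading calls were Vwf, the von Willebrand factor, at 920 and 1183 in HSC against 3.82 and 13.4 in MPP, under the floor, and Pf4, a platelet chemokine, at 497 and 382 in HSC against 203 and 151 in MPP. Of the 4 macrophage genes tested, Csf1r, the receptor for macrophage growth factor, fell in HSC, with 54.0 and 30.9 in HSC, against 282 and 552 in MPP (difference -3.09, limma adjusted p = 0.000295). Limma called 0 of the 3 B cell, 1 T cell and 3 granulocyte genes tested, and the T cell gene Cd8a (adjusted p = 0.192 in limma) and the granulocyte elastase Elane (0.108) had an unadjusted p under 0.05. The summed level of the granulocyte list was 136 and 53.1 in HSC, against 116 and 170 in MPP. The smallest p in the B cell list were those of Vpreb1 and Cd79b, and Ltf followed Elane. Cd3d, Cd3e, Cd3g and Cd4, which define T cells, were under the floor on all 4 arrays. The part of these other cell types in the heme synthesis values was not tested.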

How the data were processed

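Total RNA from 4 sorted samples was amplified and hybridised to 4 arrays, per the labels' protocols. Replicates are labelled as biological, but whether each is another animal is not stated, and the p-values cover no more than the spread between samples, which may be technical. The authors deposited 1 linear intensity value per probe set and array. The upstream software was not given in the sources used here. Each array had been scaled to 1 level, since its mean after trimming 2% of values at either end was 100.0. The 64 controls were left out of 45101 probe sets. Of the rest, 34945 had 1 gene symbol in the platform annotation, 932 several and 9160 none, and 34741 of the 34945 matched a RefSeq table of GRCm38.p6, used for names. Promoter sequences came from RefSeq with that build.

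From the deposited intensities, log2(intensity + 6.01) was computed, where 6.01 is 0.25 of the median over all arrays. The dimmest 40% of probe sets by mean level were dropped, and 27022 probe sets of 12382 genes were tested. The test of HSC against MPP used lmFit and eBayes (with a level trend, 2-sided) of limma 3.58.1 under R 4.3.3, and Benjamini-Hochberg adjustment ran over every probe set tested. With 2 residual against 8.48 prior degrees of freedom, most of the spread estimate was shared between probe sets. The brightest tested probe set stood for its gene, so a gene called this way can have other tested probe sets that were not called.

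Every member probe set is reported. Of each other list, the text names the 2 called genes with the smallest p in each direction. Where none was called, it names the 2 with the smallest p. Further genes stand outside this rule, and some are marked as named after their values were seen. Others carry no such mark, among them Hmox1, Gata1, Cd34, Slc4a1, Hbb-bh1, Hba-a1, Hba-a2, Cd3d, Cd3e, Cd3g and Cd4. The rule for genes most like a called member named none, because no member was called by its representative probe set. The members and lists were chosen with earlier results of these data known. Alternatives covered normalization, pseudocount, filter, trend, probe set choice, a replicate block and leaving out each array. Whether bacterial transcripts were spiked into the RNA is not stated. If they were, the floor exceeds background. The labels number the replicates without stating a pairing between HSC and MPP. The correlation of same-numbered deviations was 0.027, so little shared deviation was seen, which cannot settle whether the samples were paired.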

Additional observations from a re-analysis of the deposited data

How the results depend on the processing

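The counts of calls depended on the settings. The 1 heme synthesis probe set called higher in HSC, of Fech, went to 0 with equal array medians, a pseudocount of 1, no filter or no trend on level. The 1 called lower, of Alas1, went to 0 with no filter or no trend. With each array left out in turn, both counts ran from 0 to 1, and the 1 higher probe set without HSC replicate 1, and under quantile normalization, was the bright Urod probe set in place of Fech. Over all probe sets, 2868 were called, against 1697 with no filter, 1007 with no trend, and 1594 (without MPP replicate 2) to 3919 (without HSC replicate 1) with an array left out. Of the calls, 56.2% were higher in HSC, against 30.0% with equal medians.

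With a replicate block, 2 heme synthesis probe sets were called higher, those of Fech and Urod, and 4358 of all probe sets were called. Whether samples of the same number were paired is not stated in the labels, and the correlation of 0.027 cannot settle it.

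Directions turned for Alad, Uros, Cpox and Ppox, and no member gene, turned or not, was called by its representative probe set. Alad was 0.34 without probe sets of shared probes and 0.045 as the mean of its probe sets. With equal medians Uros was -0.10, Cpox -0.062 and Ppox -0.081, and Cpox was -0.0083 under quantile normalization. With an array left out, Cpox ran from -0.47 to 0.81 and Ppox from -0.18 to 0.48. Alas1, Urod and Fech kept their direction in all 14 alternatives. These included the mean of a gene's probe sets, and leaving out shared probes, where other probe sets stood for Urod and Fech. The dimmer Fech probe set 1449181_at, however, was -0.21 without HSC replicate 1. The cause of these turns was not tested. The number of arrays, 2 a group, limits the precision.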
